A study of Mus musculus with 30 samples.

Results

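Metallothioneins are small, cysteine-rich proteins that bind zinc and copper, and a set of membrane transporters moves zinc into and out of the cell around them. The genes described here are 6 of the 55426 genes in the deposited count table, chosen by gene name: the metallothioneins Mt1, Mt2 and Mt3, the metal-responsive transcription factor Mtf1, the zinc exporter Slc30a1 and the zinc importer Slc39a14. All 6 passed the filter on low counts in both tissues, so no member is left out of any test.

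The study asked how contractions of the calf muscles driven by light change gene expression in the mouse Achilles tendon and in the calcaneus, the heel bone on which the tendon inserts. Polyadenylated RNA of 30 samples was sequenced, 3 from each of 10 groups. In each tissue these were naive at day 0, unstimulated at day 5, stimulated at day 5, unstimulated at day 12 and stimulated at day 12. Deposited counts summed to 24488997 to 44566322 per library in tendon, with a median of 30334424, and to 19255983 to 35035536 in bone, with a median of 23378911.

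The same genotype, Acta1,Ai32, is given for every group, naive animals included. Ai32 is a mouse line that carries a light-gated channel, channelrhodopsin, tagged with a yellow fluorescent protein and silent until Cre recombinase acts. Acta1 encodes skeletal muscle actin, and the labels do not spell out which driver line the name stands for. Age, sex and strain are not given, nor is it said which tendon and bone samples came from 1 animal, or whether the unstimulated tissue is the other leg of a stimulated mouse. Nothing says that replicates came from separate animals, so the p-values measure the spread between these samples. The titles call the stimulated samples a stimulated control, and their group was taken from the treatment label. Unstimulated bone samples 1 and 2 of day 5 differed from each other by 2.64% per gene (biological coefficient of variation), against 8.88% to 33.2% in the other 29 pairs within groups. They were summed and counted as 1 library, which leaves 2 libraries in that group and 14 in bone.

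The tendon libraries held much muscle RNA. The 10 muscle fibre markers, among them Ckm and Myh4, summed to 93531 to 215810 CPM (counts scaled to a common library total) in tendon, and the 7 tendon fibroblast markers, among them Scx and Tnmd, to 450 to 3234 CPM. Bone libraries carried the defining markers of bone and marrow: the osteoblast list summed to 25862 to 54565 CPM, the osteoclast list to 3129 to 7048 CPM and the marrow neutrophil list to 1868 to 9443 CPM. They held muscle RNA too, with the muscle fibre list at 157 CPM in a naive library and up to 36225 CPM at day 12. In such bulk samples fewer cells of a type and less RNA per cell cannot be told apart.

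As background, free zinc in the cell is sensed by the transcription factor that Mtf1 encodes. It enters the nucleus, binds short metal response elements and switches on Mt1, Mt2 and Slc30a1, so that zinc is bound and pumped out. Mt1 and Mt2 also respond to glucocorticoids and to interleukin-6 acting through STAT3, and are classic stress genes of liver and muscle. Slc39a14, known in liver as an interleukin-6 target, encodes the importer ZIP14, which carries zinc, manganese and iron. Mt3 is best known from brain.

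In the GRCm38 assembly the metallothionein genes form a cluster of 43131 bases on chromosome 8, all on the plus strand. The files give Mt1 as ENSMUSG00000031765, Mt2 as ENSMUSG00000031762, Mt3 as ENSMUSG00000031760, Mtf1 as ENSMUSG00000028890, Slc30a1 as ENSMUSG00000037434 and Slc39a14 as ENSMUSG00000022094. Mt3 lies at 94152607 to 94154146, Mt2 at 94172664 to 94173568 and Mt1 at 94179082 to 94180327. Mt2 ends 5513 bases before Mt1 starts. Mtf1 lies on chromosome 4 at 124802104 to 124849800 on the plus strand, Slc30a1 on chromosome 1 at 191906767 to 191913247 on the plus strand, and Slc39a14 on chromosome 14 at 70303469 to 70351425 on the minus strand. Values below are counts over whole genes. None of the 50-base stretches in the annotated transcripts of Mt1, Mt2, Mt3, Mtf1 or Slc30a1 occurred in another gene, and 0.187% of those of Slc39a14 did.

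The promoters are shown because Mt1, Mt2 and Slc30a1 are known targets of the same factor. RefSeq (GRCm38.p6) held a promoter entry for 5 of the 6 members, and not for Slc39a14. Each entry was searched over 300 bases, 250 before the transcript start and 50 after it, for the metal response core TGCACNC or TGCGCNC on both strands. The start is RefSeq's, which differs from the gene starts given above, taken from GENCODE: it lies 7 bases later for Mt1, 14 for Slc30a1 and 445 for Mtf1, 46 bases earlier for Mt2, and at the same base for Mt3. The 250 bases before RefSeq's start follow, 5′ to 3′ on the plus strand, with the cores in capitals.
Mt1, chr8:94178839-94179088: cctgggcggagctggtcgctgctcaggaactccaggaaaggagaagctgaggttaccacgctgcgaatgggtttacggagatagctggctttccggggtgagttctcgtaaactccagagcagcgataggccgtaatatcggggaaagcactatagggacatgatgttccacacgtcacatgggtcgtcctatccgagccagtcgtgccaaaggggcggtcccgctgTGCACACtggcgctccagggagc
Mt2, chr8:94172368-94172617: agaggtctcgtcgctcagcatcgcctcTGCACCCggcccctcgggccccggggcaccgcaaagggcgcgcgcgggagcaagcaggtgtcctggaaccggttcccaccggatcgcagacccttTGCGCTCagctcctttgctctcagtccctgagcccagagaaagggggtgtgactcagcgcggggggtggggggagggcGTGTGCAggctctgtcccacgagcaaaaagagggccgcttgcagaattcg
Slc30a1, chr1:191906531-191906780: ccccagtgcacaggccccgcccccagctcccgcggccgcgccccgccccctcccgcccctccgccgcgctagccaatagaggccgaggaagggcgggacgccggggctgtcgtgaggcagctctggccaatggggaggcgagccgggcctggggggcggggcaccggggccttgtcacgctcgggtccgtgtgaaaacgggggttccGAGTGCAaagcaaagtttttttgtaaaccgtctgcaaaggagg

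Mt1 held 3 cores, Mt2 4, Slc30a1 2, Mt3 1 and Mtf1 none. Of 32851 promoter windows of the same length, 25.7% held at least 1 core, 7.11% at least 2, 1.97% at least 3 and 0.518% at least 4. All counts and positions of matches are relative to RefSeq's start, and which start these tissues used was not tested. The Mt1 core in capitals lies 23 to 17 bases before that start. The other 2 lie just after it, in a pair shown here because both forms of the core stand side by side.
Mt1, chr8:94179091-94179115: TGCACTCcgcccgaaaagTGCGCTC

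The Mt1 window also held 1 match to the palindromic glucocorticoid response element, 94 to 82 bases before the start, GGACATGATGTTC, a match found in 0.475% of all windows and in none of the other 4 members. The antioxidant motif TGACNNNGC occurred once in Mt2 and once in Slc30a1 (12.4% of windows), and the STAT motif TTCNNNGAA in no member (8.30% of windows). All motifs were searched on both strands, and none of these matches overlapped a metal response core. A match is a description of the sequence and not a measured site.

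The metallothioneins were the most abundant of the 6 genes per length of transcript. In stimulated tendon at day 5, Mt2 stood at 490 CPM per kilobase, Mt1 at 370 and Mt3 at 49.9, while Slc39a14 stood at 6.86, Slc30a1 at 3.35 and Mtf1 at 2.57. In naive bone the order was Mt1 at 84.0 CPM per kilobase, Mt2 at 44.6, Mt3 at 41.9, Slc39a14 at 14.9, Slc30a1 at 4.25 and Mtf1 at 3.22. Mt4, the remaining metallothionein of the cluster, known from stratified epithelium, averaged at most 0.405 CPM in any tendon group and was at 0 in 4 of the 5 bone groups.

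Mt1 was lowest in naive tendon and highest in stimulated tendon. The naive libraries held 31.6, 40.5 and 25.2 CPM. Unstimulated libraries held 76.5, 50.2 and 56.1 CPM at day 5 and 50.3, 71.4 and 65.6 CPM at day 12. Every unstimulated library was thus above every naive one, and the 2 unstimulated groups overlapped. Stimulated libraries held 237, 180 and 192 CPM at day 5, all above every unstimulated library. At day 12 they held 146, 63.2 and 242 CPM, so that replicate 2 fell among the unstimulated libraries while the other 2 did not. Ordered by mean, the tendon groups ran from naive (32.5 CPM) through unstimulated at day 5 (60.9 CPM), unstimulated at day 12 (62.4 CPM) and stimulated at day 12 (151 CPM) to stimulated at day 5 (203 CPM). Only the first pair of neighbours in that order had ranges that did not overlap.

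Mt2 followed the same order in tendon. Naive libraries held 52.8, 67.9 and 27.5 CPM. The unstimulated ones held 114, 73.0 and 67.3 CPM at day 5 and 68.6, 104 and 86.6 CPM at day 12. Naive and day 5 unstimulated libraries overlapped by less than 1 CPM, at 67.9 against 67.3. Stimulated libraries held 274, 234 and 244 CPM at day 5, more than any other group except 1 library of day 12. Those of day 12 held 168, 70.6 and 346 CPM, again with replicate 2 low. All neighbours in the order of group means overlapped.

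**Figure D1:**
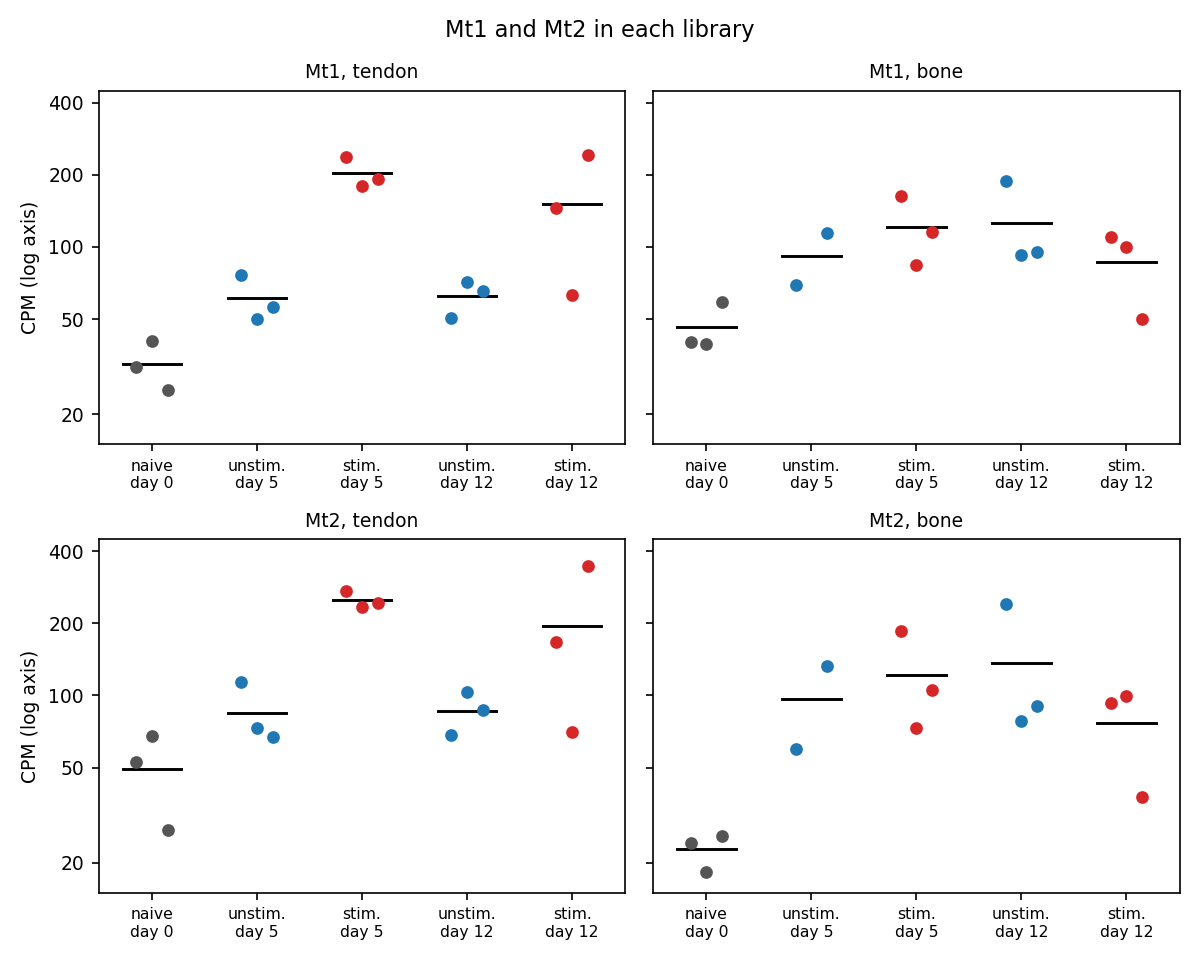
Each point is 1 library and each bar a group mean, in CPM on a log axis, for Mt1 (top) and Mt2 (bottom) in tendon (left) and bone (right). In tendon the 3 stimulated libraries of day 5 sit between 180 and 237 CPM for Mt1, above all unstimulated libraries, and 1 stimulated library of day 12 sits low at 63.2 CPM; in bone the groups after day 0 overlap.

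In tendon at day 5, Mt1 stood at 203 ± 29.7 CPM in stimulated and 60.9 ± 13.8 CPM in unstimulated libraries (SD, n = 3 each), a 3.33-fold difference. The log2 fold change was 1.74 ± 0.37 (SE; 95% interval 1.01 to 2.47), and the edgeR adjusted p was 0.151 over all genes tested. Mt2 stood at 250 ± 20.7 against 84.7 ± 25.5 CPM, a log2 fold change of 1.56 ± 0.47 with an edgeR adjusted p of 0.365. Slc39a14 stood at 33.8 ± 3.30 against 22.8 ± 5.40 CPM, a log2 fold change of 0.57 ± 0.19 with an edgeR adjusted p of 0.415. In these 3 of the 6 genes all stimulated libraries were above all unstimulated ones, as in 7.10% of all genes tested, but none passed the threshold of 0.05 after adjustment.

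The edgeR test called 0 of the 6 members in tendon at day 5, where it called 0.0585% of all genes. Without adjustment 3 members had a p under 0.05, as did 1417 of all 17108 genes. DESeq2, a second count test, called 1 member, Mt1 (adjusted p = 0.000450), among 129 genes of all. All 10 muscle fibre markers were found, and their sum ranged from 116712 to 140674 CPM with stimulation and from 106383 to 191248 CPM without. With the muscle fibre score as a covariate the log2 fold change of Mt1 was 1.65 and that of Mt2 1.54. The 6 Schwann cell markers summed to 18.3 to 25.5 CPM with and 39.0 to 1848 CPM without stimulation, the 6 osteoclast markers to 50.5 to 76.2 and 87.6 to 218 CPM, the chondrocyte markers to 12.6 to 30.6 and 33.0 to 283 CPM, and the osteocyte markers to a median of 2.28 and 7.03 CPM. These 4 of the 13 marker lists did not overlap between the groups and were all lower with stimulation. The osteocyte gene Fgf23 was at 0 in both groups, no other marker of the 4 lists was, and their part in the result was not tested.

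At day 12 in tendon the means differed in the same direction with more spread. Mt1 stood at 151 ± 89.6 CPM in stimulated and 62.4 ± 10.9 CPM in unstimulated libraries (SD, n = 3 each), a log2 fold change of 1.27 ± 0.37 with an edgeR adjusted p of 0.162. For Mt2 the log2 fold change was 1.18 ± 0.46, with an edgeR adjusted p of 0.357. Slc39a14 was the member whose libraries did not overlap here, with all stimulated libraries higher, as in 7.65% of all genes tested: 34.2, 24.5 and 44.5 CPM stimulated against 20.5, 19.6 and 22.1 CPM unstimulated. Its log2 fold change was 0.73 ± 0.19, with an edgeR adjusted p of 0.114.

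The edgeR test called 0 of 6 members at day 12 too, where it called 0.345% of all genes. Unadjusted, 3 members had a p under 0.05, as did 1916 of all 17108 genes. DESeq2 called 2 members, Mt1 (adjusted p = 0.0203) and Slc39a14 (adjusted p = 0.0212), among 362 genes of all. The edgeR result changed when single libraries were left out, and the DESeq2 calls were not tested this way. Without stimulated replicate 2, edgeR called Mt1 (log2 fold change 1.63, adjusted p = 0.00504), Mt2 (1.56, adjusted p = 0.0389) and Slc39a14 (0.92, adjusted p = 0.00837). Without stimulated replicate 3, the library with the highest Mt1, Mt2 and Slc39a14, the log2 fold change fell to 0.74 for Mt1, 0.46 for Mt2 and 0.50 for Slc39a14. In replicate 2 the 6 Schwann cell markers summed to 25.4 CPM, against 406 and 370 CPM in replicates 1 and 3 and 35.7 to 620 CPM in the unstimulated libraries. Its muscle fibre sum was the lowest of the 3, at 177403 CPM. With the muscle fibre score as a covariate the log2 fold change was 1.22 for Mt1, 1.16 for Mt2 and 0.67 for Slc39a14. The edgeR adjusted p was then 0.198, 0.368 and 0.0568, so none was called. The part of the Schwann cell list in the result was not tested. Of the 13 lists only the osteocyte list did not overlap at day 12, at 1.17 to 2.03 CPM with and 2.74 to 4.66 CPM without stimulation.

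The importer gene Slc39a14 had its own order in tendon. Naive libraries held 28.3, 25.8 and 27.4 CPM. Unstimulated libraries held 19.9, 19.5 and 29.0 CPM at day 5, and stimulated ones 37.0, 33.98 and 30.4 CPM. The unstimulated libraries of day 12, given above, were all below the naive ones, and the stimulated libraries of day 5 all above them. Neither difference passed the edgeR test: the log2 fold change was -0.39 ± 0.19 (adjusted p = 0.156) for unstimulated tendon at day 12 against naive, and 0.32 ± 0.19 (adjusted p = 0.369) for stimulated tendon at day 5. How many of all genes were apart from naive in this way was not counted. In bone Slc39a14 held 46.4 to 80.7 CPM over the 14 libraries, with log2 fold changes on stimulation of 0.18 ± 0.17 at day 5 and -0.09 ± 0.15 at day 12, and all neighbours in the order of group means overlapped.

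A comparison chosen after the values had been seen took the mean effect of stimulation over both days. In tendon it called 2 of the 6 members, where edgeR called 1.29% of all genes. Mt1 rose by a log2 fold change of 1.504 ± 0.26 (edgeR adjusted p = 0.0193), or 2.84-fold. Slc39a14 rose by 0.65 ± 0.13 (edgeR adjusted p = 0.0354), or 1.57-fold. Mt2, at 1.37 ± 0.33, had an edgeR adjusted p of 0.0643. DESeq2 called 3 members, Mt2 (1.36, adjusted p = 0.00371) with Mt1 and Slc39a14, among 713 genes of all. Mt3, Mtf1 and Slc30a1 had log2 fold changes of 0.07, -0.15 and -0.02, none of them past the threshold. The Mt1 call was lost without 1 of 4 libraries taken singly: stimulated replicate 1 of day 5, unstimulated replicate 2 of day 5, or unstimulated replicate 1 or 3 of day 12 (adjusted p up to 0.0640), and without the filter on low counts (adjusted p = 0.0522). The Slc39a14 call was lost without any of 10 of the 12 libraries (adjusted p up to 0.0960) and held without stimulated replicate 2 of day 12 or unstimulated replicate 3 of day 5. Without stimulated replicate 2 of day 12 Mt2 was called too (1.56, adjusted p = 0.00583).

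Whether the effect differed between days was tested by an interaction term. In tendon it called 0 of 6 members and 0% of all genes, with 0 members at an unadjusted p under 0.05 and 0 called by DESeq2. For Mt1 the effect at day 12 minus that at day 5 was -0.47 ± 0.51 on the log2 scale, with a 95% interval from -1.47 to 0.54. In bone the interaction called 0 members and 0% of all genes, with 0 members at an unadjusted p under 0.05 and 0 by DESeq2. Its value for Mt1 was -0.93 ± 0.58 (95% interval -2.06 to 0.20).

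**Figure D2:**
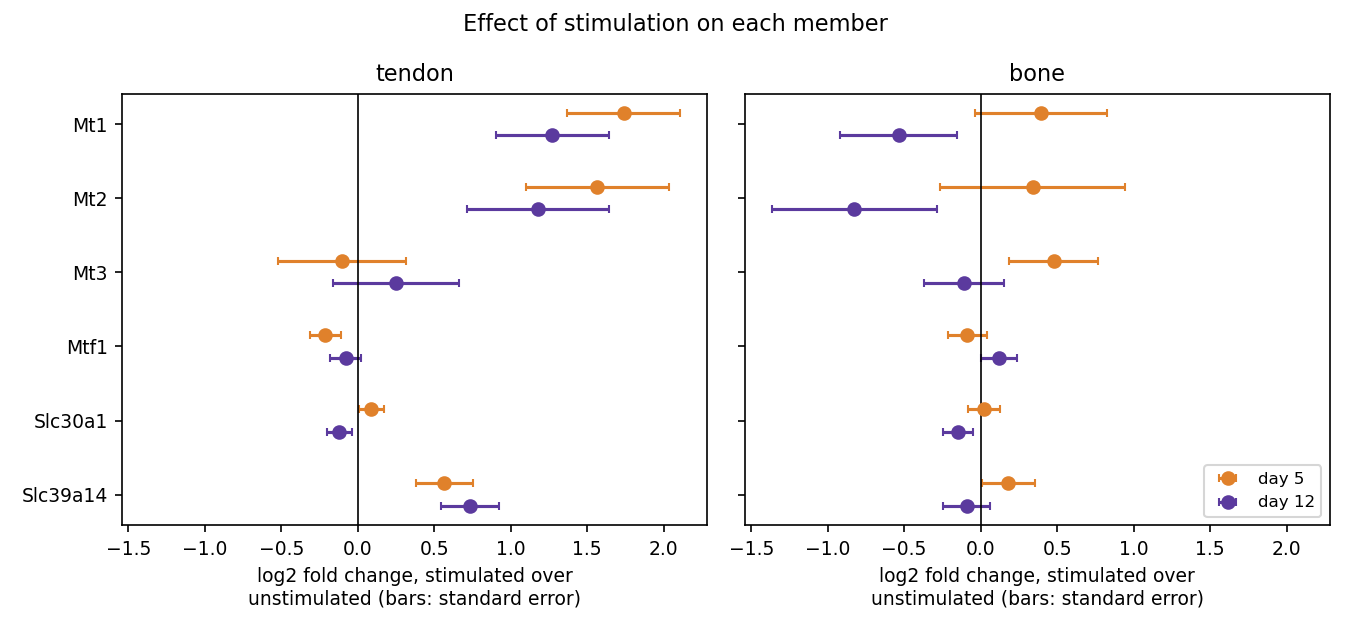
Log2 fold change of stimulated over unstimulated libraries for the 6 members, in tendon (left) and bone (right), at day 5 (orange) and day 12 (purple), with standard errors as bars. In tendon Mt1, Mt2 and Slc39a14 lie above 0 at both days, from 0.57 to 1.74; in bone Mt1 and Mt2 lie on different sides of 0 at the 2 days with wide errors.

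In bone Mt1 and Mt2 stood above naive levels with and without stimulation, and passed the test in the unstimulated group of day 12. Mt1 stood at 40.1, 39.3 and 59.0 CPM in naive bone. Unstimulated libraries held 69.5 and 114 CPM at day 5 and 189, 92.8 and 94.99 CPM at day 12. Stimulated libraries held 162, 83.7 and 116 CPM at day 5 and 110, 99.9 and 49.9 CPM at day 12. The groups after day 0 overlapped throughout, and only 1 of their 11 libraries, a stimulated one of day 12, lay within the naive range.

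Mt2 stood lower in naive bone than Mt1, at 24.1, 18.4 and 25.9 CPM, and every later library was above these. Between naive and unstimulated bone at day 12, 39.5% of all genes tested did not overlap, in either direction. For the other later groups, of which unstimulated bone at day 5 holds only 2 libraries, that share was not counted. Unstimulated libraries held 59.8 and 133 CPM at day 5 and 240, 77.9 and 90.7 CPM at day 12. Stimulated ones held 187, 73.4 and 105 CPM at day 5 and 93.3, 99.4 and 37.8 CPM at day 12. In the order of group means, from naive (22.8 CPM) through stimulated at day 12 (76.9 CPM), unstimulated at day 5 (96.3 CPM) and stimulated at day 5 (122 CPM) to unstimulated at day 12 (136 CPM), only naive bone was apart from its neighbour.

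Against naive bone, edgeR called 3 of 6 members in unstimulated bone at day 12, where it called 21.8% of all genes. Mt2 rose by a log2 fold change of 2.58 ± 0.57 (adjusted p = 0.0118), 5.97-fold, and Mt1 by 1.44 ± 0.39 (adjusted p = 0.0247), 2.72-fold. Mtf1, the zinc sensor, fell by 0.42 ± 0.11 on the log2 scale (adjusted p = 0.0225), from 23.2, 26.04 and 24.5 CPM to 16.3, 19.1 and 19.7 CPM. In all 3 genes the groups did not overlap, as in 39.5% of all genes tested. The Mt1 call was lost without the filter on low counts (adjusted p = 0.0619) and without naive replicate 1 or 2 or unstimulated replicate 1, that of Mt2 without naive replicate 2, and that of Mtf1 without naive replicate 2 or 3 or unstimulated replicate 1. Without unstimulated replicate 1 the log2 fold change was 1.03 for Mt1 and 1.89 for Mt2.

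In the other 3 comparisons with naive bone edgeR called 0 members. At day 5 it called 0.435% of all genes in unstimulated and 0.228% in stimulated bone, and at day 12 it called 4.54% in stimulated bone. Unadjusted, 2, 3 and 3 members had a p under 0.05, as did 2781, 3069 and 4367 of all 18851 genes. DESeq2 called 1, 2 and 1 members, among 523, 687 and 1934 genes of all. The log2 fold change of Mt2 was 2.08 ± 0.60 (edgeR adjusted p = 0.184) in unstimulated and 2.42 ± 0.57 (0.104) in stimulated bone at day 5, and 1.75 ± 0.56 (0.0954) in stimulated bone at day 12. All 4 comparisons share the same 3 naive libraries. In unstimulated bone at day 12, 9 of the 13 marker lists did not overlap with naive bone. The neutrophil list had a median of 5180 CPM in naive bone and 1950 CPM there, the erythroid list 18638 and 6980 CPM, the osteoblast list 52760 and 34283 CPM, the osteoclast list 5259 and 3841 CPM, the chondrocyte list 3810 and 2702 CPM, and the osteocyte list 442 and 251 CPM. The adipocyte list (910 and 1528 CPM), the tendon fibroblast list (1701 and 3418 CPM) and the keratinocyte list (4.68 and 5.74 CPM) were higher. In the other 3 groups fewer lists were apart from naive: 8 in unstimulated and 2 in stimulated bone at day 5, and 3 in stimulated bone at day 12. There the erythroid list overlapped with naive in all 3 groups, the neutrophil list in both stimulated groups, and the tendon fibroblast list in stimulated bone at day 5, while the osteoblast list was lower in all 3 groups. Their part in the result was not tested.

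No difference between stimulated and unstimulated bone passed the test. At day 5 edgeR called 0 of 6 members and 0% of all genes, and at day 12 0 members and 0.0371% of all genes, with 0 members at an unadjusted p under 0.05 on either day and 0 called by DESeq2. Mt1 had a log2 fold change of 0.39 ± 0.43 at day 5 (95% interval -0.45 to 1.24) and -0.54 ± 0.38 at day 12 (-1.29 to 0.22). Mt2 had 0.34 ± 0.61 (-0.85 to 1.53) and -0.83 ± 0.54 (-1.89 to 0.24). The mean over both days, chosen after the values had been seen, called 0 members, none at an unadjusted p under 0.05 and none by DESeq2, against 0.0212% of all genes. For Slc39a14 it was 0.05 ± 0.12 (95% interval -0.18 to 0.27). Of the 13 marker lists, 6 did not overlap between stimulated and unstimulated bone at day 5, with 4 higher and 2 lower on stimulation. Of the lower lists, the keratinocyte list stood at 203 CPM in the summed unstimulated library and 5.27 CPM in unstimulated replicate 3. In the stimulated libraries of day 5 it stood at 3.35 to 5.12 CPM. At day 12, 3 lists did not overlap, all lower on stimulation. The part of these lists in the result was not tested.

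Whether stimulation acted differently in the 2 tissues was tested directly. At day 5 the interaction called 0 members and 0% of all genes, and DESeq2 called 0 members. Of the members, Mt1 alone had an unadjusted p under 0.05, as did 1248 of all 19845 genes. At day 12 the interaction called 0 members and 0.222% of all genes, and DESeq2 called 0 members. Unadjusted, 3 members had a p under 0.05, as did 2160 of all 19845 genes. The tendon effect minus the bone effect at day 12 was 1.77 ± 0.55 on the log2 scale for Mt1 (edgeR adjusted p = 0.202), 1.97 ± 0.73 for Mt2 (0.301) and 0.78 ± 0.25 for Slc39a14 (0.213). Over the mean of both days, chosen after the values had been seen, it was 1.57 ± 0.40 for Mt1 (edgeR adjusted p = 0.0984), 1.60 ± 0.53 for Mt2 (0.226) and 0.60 ± 0.18 for Slc39a14 (0.174). Here edgeR called 0 members and 0.277% of all genes. Unadjusted, 3 members had a p under 0.05, as did 2174 of all 19845 genes, and DESeq2 called 1 member, among 247 genes of all. Without stimulated tendon replicate 2 of day 12, edgeR called 2 members in this test and 2 in the one at day 12.

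Against naive tendon, edgeR called members in the stimulated groups. At day 5 it called 2 of 6, where it called 2.29% of all genes. Mt1 rose by a log2 fold change of 2.65 ± 0.38 (adjusted p = 0.0101), 6.26-fold, and Mt2 by 2.34 ± 0.48 (adjusted p = 0.0315), 5.07-fold. At day 12 it called 3 of 6, where it called 24.4% of all genes: Mt1 rose by 2.21 ± 0.38 (adjusted p = 0.00364), Mt2 rose by 1.98 ± 0.47 (adjusted p = 0.0132), and Slc30a1 fell by 0.24 ± 0.08 (adjusted p = 0.0460). The Mt1 call at day 5 was lost without naive replicate 3 or stimulated replicate 1, and the Mt2 call at day 5 without any library except stimulated replicate 3. The Mt1 call at day 12 held without each library in turn, with adjusted p up to 0.0232. The Mt2 call at day 12 was lost without naive replicate 3, and its log2 fold change was 1.27 without stimulated replicate 3.

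In the unstimulated tendon groups edgeR called 0 members against naive. It called 0.0351% of all genes at day 5 and 18.8% at day 12. At each day 1 member, Mt1, had an unadjusted p under 0.05, as did 1870 and 6122 of all 17108 genes. DESeq2 called 0 and 1 members, among 109 and 4110 genes of all. The log2 fold change of Mt1 was 0.91 ± 0.37 at day 5 (edgeR adjusted p = 0.423) and 0.94 ± 0.37 at day 12 (adjusted p = 0.0870), with all unstimulated libraries above all naive ones at both days. The share of all genes apart in this way was not counted. All 4 comparisons with naive tendon share its 3 libraries. The muscle fibre list had a median of 111032 CPM in naive tendon, 127399 CPM in stimulated and 173259 CPM in unstimulated tendon at day 5, and 192240 and 194884 CPM at day 12, where all libraries were above the naive ones. The tendon fibroblast list had a median of 2900 CPM in naive tendon and 608 to 1193 CPM in the other groups, and was below naive in all libraries of day 12. The osteoblast list, whose Col1a1 tendon cells also express, went from 14369 to between 2318 and 3561 CPM, the chondrocyte list from 143 to between 8.31 and 64.2 CPM, and the osteoclast list from 146 to between 26.1 and 134 CPM. Of the 13 lists, none was apart from naive in unstimulated tendon at day 5, 3 in stimulated tendon at day 5, and 9 in each group of day 12, where the erythroid, neutrophil and adipocyte lists were lower too. The part of these lists other than muscle was not tested. With the muscle fibre score as a covariate Mt1 kept its call at both days (log2 fold change 2.7002 and 2.36, edgeR adjusted p = 0.0122 and 0.0210), while Mt2 kept it at day 5 (2.35, 0.0417) but not at day 12 (2.02, 0.0636).

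Time alone moved none of the 6 genes past the threshold. Between days 12 and 5, edgeR called 0 members in unstimulated tendon (0.0234% of all genes), stimulated tendon (0.187%), unstimulated bone (0%) and stimulated bone (0%). Unadjusted, 1 member had a p under 0.05, in stimulated tendon, where 2978 of 17108 genes did, and DESeq2 called 0 members in all 4. That member was Slc30a1, with a log2 fold change of -0.29 ± 0.08 (edgeR adjusted p = 0.121) and all libraries of day 12 below those of day 5. The share of all genes apart between these days was not counted.

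Slc30a1, which encodes the zinc exporter ZnT1 of the plasma membrane, varied little. It held 13.5 to 18.2 CPM over the 15 tendon libraries and 19.8 to 25.3 CPM over the 14 bone libraries, each tissue scaled alone. Its only call against naive was the fall in stimulated tendon at day 12 given above, from 17.0 ± 0.45 to 14.4 ± 0.81 CPM (SD, n = 3 each). That call was lost with the muscle fibre score as a covariate (log2 fold change -0.18, edgeR adjusted p = 0.276) and without 5 of the 6 libraries taken singly, all except stimulated replicate 2. It was also lost with DESeq2's library scaling in edgeR (adjusted p = 0.0552) and without the filter on low counts (0.0951). With only the compared libraries fitted it was lost as well (edgeR adjusted p = 0.0900). Across the 15 tendon libraries Mt1 ranged from 25.2 to 242 CPM and Mt2 from 27.5 to 346 CPM. Why these ranges differ from that of Slc30a1 was not tested.

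Mtf1 stayed between 18.3 and 24.1 CPM in tendon, with overlap between all neighbouring groups, and was not called in any tendon comparison. In bone its group means ran from 18.4 CPM in unstimulated bone at day 12 to 24.6 CPM in naive bone, and all neighbours overlapped. Against naive it was lower in all libraries of stimulated bone as well, with log2 fold changes of -0.29 ± 0.11 at day 5 (edgeR adjusted p = 0.252) and -0.30 ± 0.11 at day 12 (adjusted p = 0.142). For these groups the share of all genes apart from naive was not counted.

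Mt3, unlike Mt1 and Mt2, was not called on stimulation or against naive in either tissue. In tendon it held 37.3, 28.4 and 12.1 CPM in naive libraries, 41.4, 26.2 and 18.7 CPM in unstimulated and 23.4, 31.1 and 25.8 CPM in stimulated libraries of day 5. At day 12 it held 30.4, 46.6 and 47.2 CPM without and 41.5, 30.7 and 75.2 CPM with stimulation, the last being the library with the highest Mt1 and Mt2. Its log2 fold changes on stimulation were -0.10 ± 0.42 at day 5 and 0.25 ± 0.41 at day 12. In bone it ranged from 12.9 to 29.8 CPM, and the stimulated libraries of day 5 lay above the 2 unstimulated ones (log2 fold change 0.48 ± 0.29, edgeR adjusted p = 0.704). How many of all genes were apart there was not counted.

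**Figure D3:**
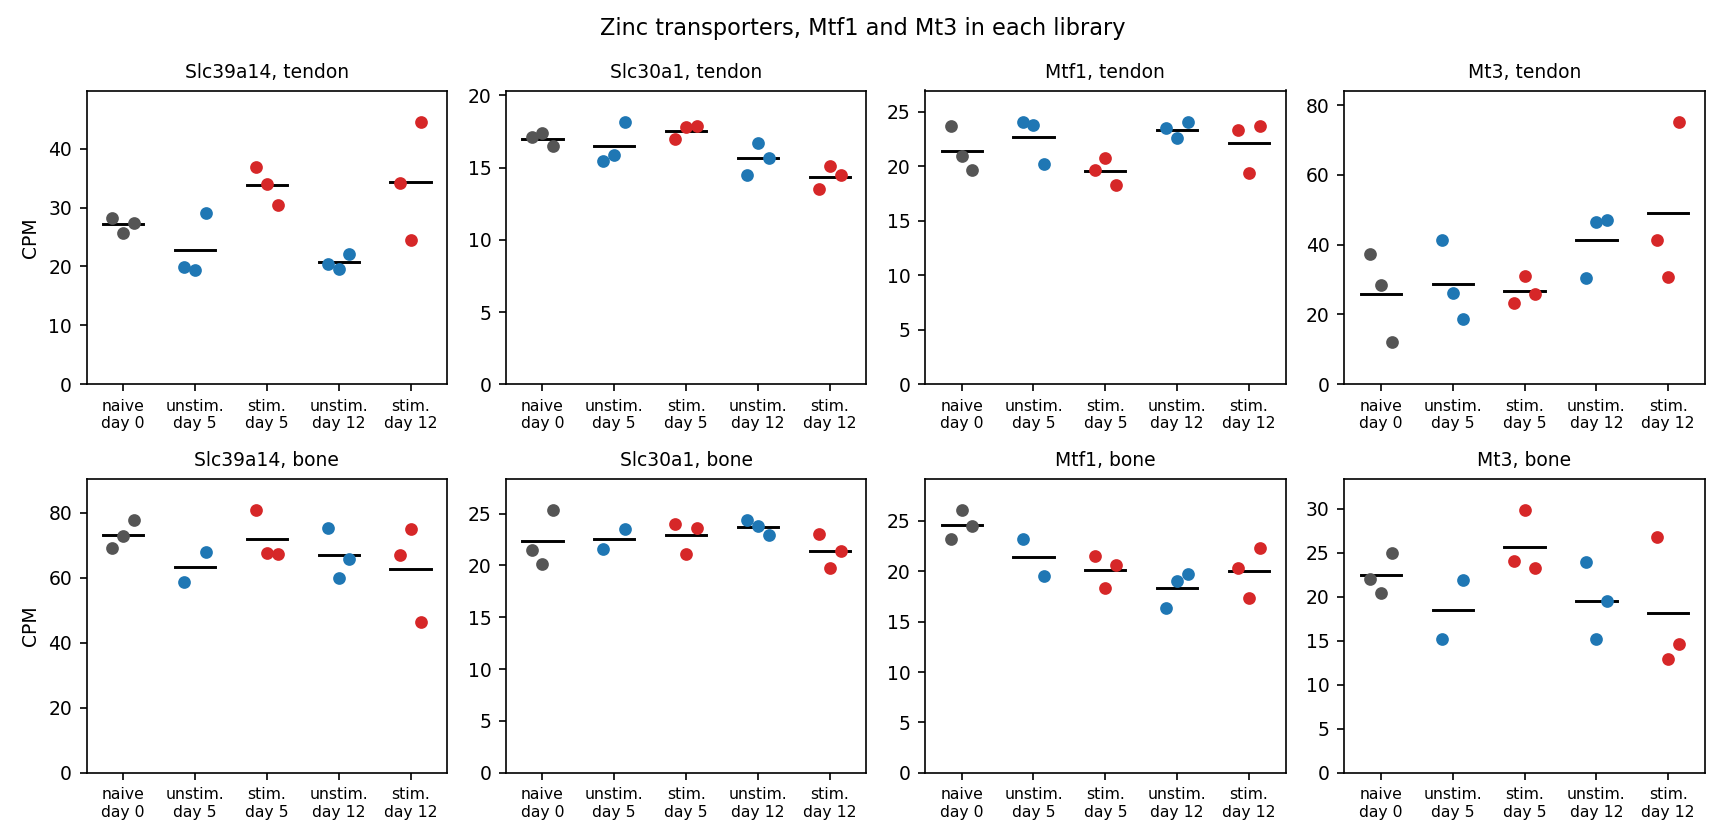
Each point is 1 library and each bar a group mean, in CPM on linear axes that start at 0, for Slc39a14, Slc30a1, Mtf1 and Mt3 in tendon (top) and bone (bottom). Slc39a14 in tendon is above the unstimulated libraries in all stimulated libraries of the same day; Slc30a1 and Mtf1 stay within 13.5 to 26.04 CPM in both tissues.

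The naive tissues differed in 5 of the 6 genes, where edgeR called 68.4% of all genes, so that a call here is common. On a scale shared by both tissues, Mt2 stood at 62.4 ± 25.7 CPM in tendon and 17.9 ± 2.92 CPM in bone (SD, n = 3 each), a log2 fold change of 1.804 ± 0.53 (edgeR adjusted p = 0.00504). Slc39a14 was lower in tendon, at 34.3 ± 1.57 against 57.3 ± 2.61 CPM, a log2 fold change of -0.74 ± 0.18 (adjusted p = 0.000720). Mtf1 (0.49, adjusted p = 0.000504) and Slc30a1 (0.30, adjusted p = 0.00399) were higher in tendon on this scale. With each tissue scaled alone, as in the other paragraphs, naive Mtf1 averaged 21.4 CPM in tendon and 24.6 CPM in bone. Slc30a1 averaged 17.0 and 22.3 CPM in the same way. The direction of these differences thus depended on the scaling. Mt3 was higher by 0.90 ± 0.37 (adjusted p = 0.0375), with overlap between the groups, and its call was lost without any library except tendon replicate 3. Mt1 did not pass the test, at 0.19 ± 0.39 (95% interval -0.58 to 0.95).

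Mt1 and Mt2, neighbours on chromosome 8, rose and fell together from library to library. Across the 15 tendon libraries Pearson's r of their log2 CPM was 0.982 and Spearman's rho 0.964. Across the 14 bone libraries r was 0.977 and rho 0.987. The permutation p was 1e-05 for each, the smallest that 100000 permutations can give, and 0.00015 after Benjamini-Hochberg adjustment over the 30 pairs of members tested. Without the 2 libraries farthest from the median of Mt1, r was 0.974 and 0.961. With group means removed, so that only differences between replicates of a group count, it was 0.963 and 0.964.

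The ratio of Mt2 to Mt1 set naive bone apart. Mt2 CPM divided by Mt1 CPM was 0.503 ± 0.087 in naive bone (SD, n = 3; range 0.440 to 0.602) and averaged 0.867 to 1.02 in the other bone groups, where the lowest library was at 0.759. In tendon it averaged 1.23 to 1.48, with the lowest library at 1.09. No naive bone library reached the ratio of any other library of either tissue.

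**Figure D4:**
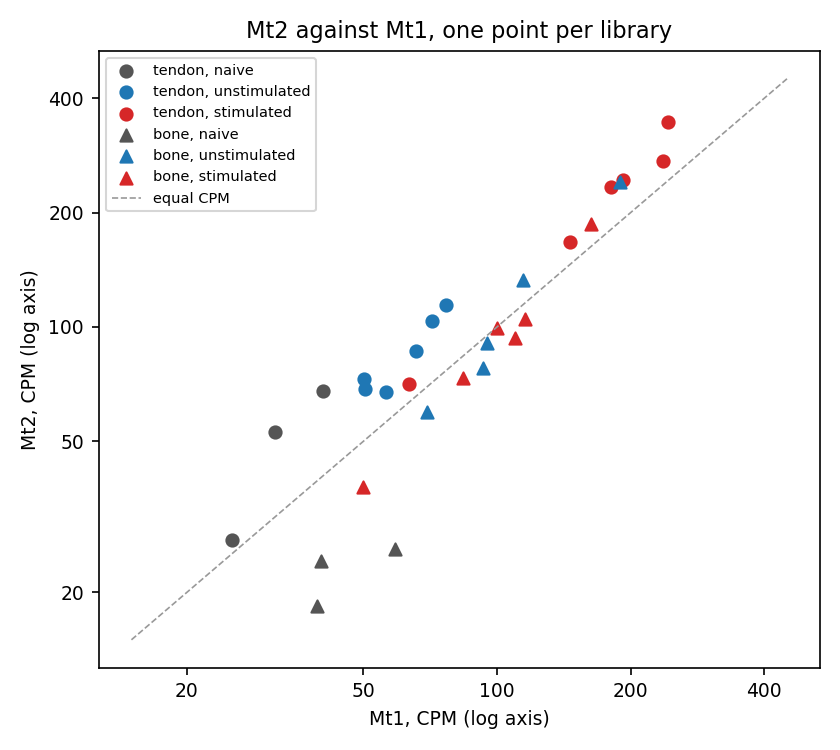
Mt2 CPM against Mt1 CPM, both on log axes, 1 point per library, circles for tendon and triangles for bone, with the dashed line at equal CPM. All tendon libraries lie above the line, with ratios from 1.09 upward, and the 3 naive bone libraries lie farthest below it at 0.440 to 0.602.

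Of the 30 pairs, 5 had an adjusted permutation p under 0.05 for r and 2, Mt1 with Mt2 in each tissue, for rho. The permutations shuffled all libraries of a tissue without regard to group, so differences between group means enter these p-values. No p was computed with group means removed. In bone Mtf1 ran against Mt2 (r = -0.789, rho = -0.688, adjusted permutation p = 0.0081 and 0.0841) and Mt1 (r = -0.742, rho = -0.640, adjusted p = 0.0202 and 0.102). Without the 2 libraries farthest from the median of Mt2 and of Mt1, r was -0.679 and -0.615, and with group means removed it was -0.557 and -0.468. In tendon Mt3 ran with Mtf1 (r = 0.654, rho = 0.614, adjusted permutation p = 0.0353 and 0.102; r = 0.643 without the 2 farthest libraries and 0.755 with group means removed). Slc39a14 ran with Mt1 in tendon at r = 0.638 and rho = 0.543 (adjusted permutation p = 0.0558 and 0.199), and r was 0.402 without the 2 farthest libraries. With group means removed it was 0.622. In bone Slc39a14 and Mt1 had r = 0.351 and rho = 0.262 (adjusted permutation p = 0.415 and 0.578), and r was 0.632 without the 2 farthest libraries and 0.875 with group means removed. Mt3 had r = 0.506 with Mt2 and 0.405 with Mt1 in tendon (rho = 0.382 and 0.357, adjusted permutation p of r = 0.163 and 0.289, of rho = 0.325 and 0.359). Without the 2 farthest libraries these were 0.483 and 0.370. With group means removed they were 0.833 and 0.690, so that between replicates of a group Mt3 ran closer to Mt1 and Mt2 than across all libraries.

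The genes whose log2 CPM followed each member most closely were found among 12553 genes in tendon and 14011 in bone with a mean of at least 1 CPM. In tendon Mt2 ranked first for Mt1, followed by Hsd17b10 (r = 0.921), Fggy (0.898), Nudt14 (0.889) and Chrna9 (0.886), over 15 libraries. For Mt2 the order after Mt1 was Fggy (0.896), Hsd17b10 (0.895), Asl (0.893) and Gadd45a (0.892). In bone, over 14 libraries, Mt2 again ranked first for Mt1, followed by Osmr, the oncostatin M receptor (r = 0.935), and Fkbp1a (0.918). After Mt1, Mt2 was followed most closely by Rhoj (0.950) and Osmr (0.942).

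For Slc39a14 the nearest genes were Asxl1 (r = 0.951), Il13ra1 (0.943) and Igf2bp2 (0.927) in tendon and Cd276 (0.914), Ext1 (0.887) and Tubb6 (0.871) in bone. For Mt3 they were Bves (0.928), Mpp6 (0.925) and Arhgef37 (0.922) in tendon, and Gstm6 (0.864), Ckb (0.861) and Tnfrsf11a (0.857) in bone. For Mtf1 they were Map2k3 (0.912), Trim55 (0.877) and Crym (0.875) in tendon, and N4bp1 (0.961), Arel1 (0.960) and Gpr35 (0.934) in bone. For Slc30a1 they were Krit1 (0.919), Srsf10 (0.895) and Arpin (0.877) in tendon, and Snph (0.843), Mmd (0.818) and Tmem135 (0.812) in bone. These rankings were taken from all genes compared, over libraries that share groups and tissue makeup, and are descriptions.

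Related genes were read from 6 lists: other zinc exporters, other zinc importers, copper and iron handling, glucocorticoid-responsive genes, the interleukin-6 and STAT3 response, and NRF2 antioxidant genes. On stimulation edgeR called 0 genes of any list in either tissue at either day. In tendon at day 5 all 12 tested genes of the interleukin-6 and STAT3 list were above 0, with a median log2 fold change of 0.81, against a median of -0.0029 over all genes. Bcl3, an NF-kappaB regulator, was nearest to the threshold (1.48 ± 0.25, edgeR adjusted p = 0.0562). Osmr (0.82, 0.181), Stat3 itself (0.41, 0.365) and Socs3, a feedback inhibitor of the pathway (1.61, 0.377), also had all stimulated libraries above all unstimulated ones, as in 7.10% of all genes tested. At day 12, 9 of the 12 were above 0 with a median of 0.10.

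The medians of the other lists lay near 0 on stimulation in tendon. At day 5 the median log2 fold change was -0.01 over 6 tested zinc exporters, -0.04 over 11 zinc importers, 0.09 over 10 copper and iron genes, -0.07 over 12 glucocorticoid-responsive genes and 0.07 over 9 NRF2 genes. At day 12 these medians were -0.09, 0.03, 0.01, -0.19 and 0.05. Hmox1, the heme oxygenase counted in the NRF2 list, stood at 20.5 against 7.67 CPM at day 5 (log2 fold change 1.42 ± 0.25, edgeR adjusted p = 0.0666). Over the mean of both days it was the 1 gene of all lists called in tendon, with a log2 fold change of 1.001 ± 0.18 (adjusted p = 0.0193). In bone on stimulation 1 of 12 glucocorticoid-responsive genes was above 0 at each day, with medians of -0.31 at day 5 and -0.33 at day 12.

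Against naive, Fkbp5, a classic glucocorticoid target, rose in all 4 tendon comparisons. Its log2 fold change was 1.89 in unstimulated and 1.84 in stimulated tendon at day 5, and 1.42 in stimulated tendon at day 12, where unstimulated tendon stood at 88.6 against 22.8 CPM. Zbtb16 rose with it in 3 of them, by 1.02, 0.73 and 0.61 at day 5 unstimulated, day 5 stimulated and day 12 unstimulated. Tsc22d3 (0.75) and Glul (0.67) rose in stimulated tendon at day 12. Dusp1, of the same list, fell in both stimulated tendon groups, by 1.27 and 1.13 on the log2 scale. Of the 12 genes, 2 rose and 0 fell in unstimulated tendon at each day, with list medians of 0.34 and 0.29. In stimulated tendon 2 rose and 1 fell at day 5 (median 0.51), and 3 rose and 1 fell at day 12 (median 0.07). Of all genes edgeR called 0.0351% in unstimulated and 2.29% in stimulated tendon at day 5, and 18.8% and 24.4% at day 12. In bone all 12 genes of the list were above 0 in unstimulated tissue at day 12, with a median of 0.74 against 0.03 over all genes, and 5 rose, where 1899 of 18851 genes of all rose: Klf15 (1.22), Errfi1 (1.06), Klf9 (0.996), Glul (0.78) and Fkbp5 (0.72). In stimulated bone at day 12, 2 rose, Klf15 (0.96) and Klf9 (0.66), where 393 genes of all rose, and the median was 0.50. At day 5 Klf9 alone rose in unstimulated bone (0.94) and no gene of the list in stimulated bone, with medians of 0.78 and 0.48.

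Several zinc transport genes other than the members were lower in tendon at day 12. Against naive, 6 of 11 tested importers fell in unstimulated tendon at day 12 and 5 of 11 in stimulated tendon, with medians of -0.36 and -0.39, against -0.027 and -0.013 over all genes, and none that rose. Of all 17108 genes, 1812 and 2143 fell in these comparisons, where 18.8% and 24.4% were called. Slc39a6 fell by 0.84 and 0.79 on the log2 scale, Slc39a13, an importer of the secretory pathway needed for connective tissue, by 0.60 and 0.57, and Slc39a11 by 0.52 and 0.72. Of 6 tested exporters Slc30a5 and Slc30a7, which load zinc into the secretory pathway, fell in both groups. Slc30a2 rose in unstimulated tendon, from 3.97 to 14.2 CPM (log2 fold change 1.84 ± 0.42, edgeR adjusted p = 0.0164). In bone at day 12 Slc39a11 (-0.52) and Slc30a10 (-1.81) fell in the unstimulated group, where edgeR called 21.8% of all genes. No gene of either list was called in the stimulated group, where it called 4.54%.

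Some genes of the iron, interleukin-6 and NRF2 lists were also called against naive, to be read beside the share of all genes called. That share was 2.29% in stimulated tendon at day 5. At day 12 it was 18.8% in unstimulated and 24.4% in stimulated tendon, and 21.8% and 4.54% in bone. Slc11a2, an iron importer, rose in tendon at day 12 (0.43 unstimulated, 0.66 stimulated) and fell in bone (-0.39 and -0.34). Tfrc, the transferrin receptor, and Slc40a1, the iron exporter, fell in unstimulated bone at day 12, by 0.75 and 0.93 on the log2 scale, together with the erythroid markers given above. In stimulated tendon at day 5 Bcl3 (0.99) and Pim1 (0.89) of the interleukin-6 list and Hmox1 (1.43) rose. At day 12 none of the 12 tested interleukin-6 genes rose in either tendon group, while Timp1, an inhibitor of matrix metalloproteinases, fell by 1.79 without and 1.42 with stimulation on the log2 scale, and Junb by 0.86 and 0.90. No other gene of that list was called there. Of the 9 NRF2 genes, Slc7a11, the cystine transporter, fell by 2.14 and 2.45 and Gsr, glutathione reductase, by 0.49 and 0.43, and none rose. In bone at day 12 Serpina3n, whose family holds close paralogs, rose by log2 fold changes of 2.37 without and 2.65 with stimulation, and Osmr (0.70) and Il6st (0.37) rose in the unstimulated group while Pim1 fell (-0.95). In the NRF2 list 3 of 9 genes fell in unstimulated bone at day 12 (Gclc, Gclm and Gsr) and none rose, where 21.8% of all genes were called and 2211 of 18851 fell.

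**Figure D5:**
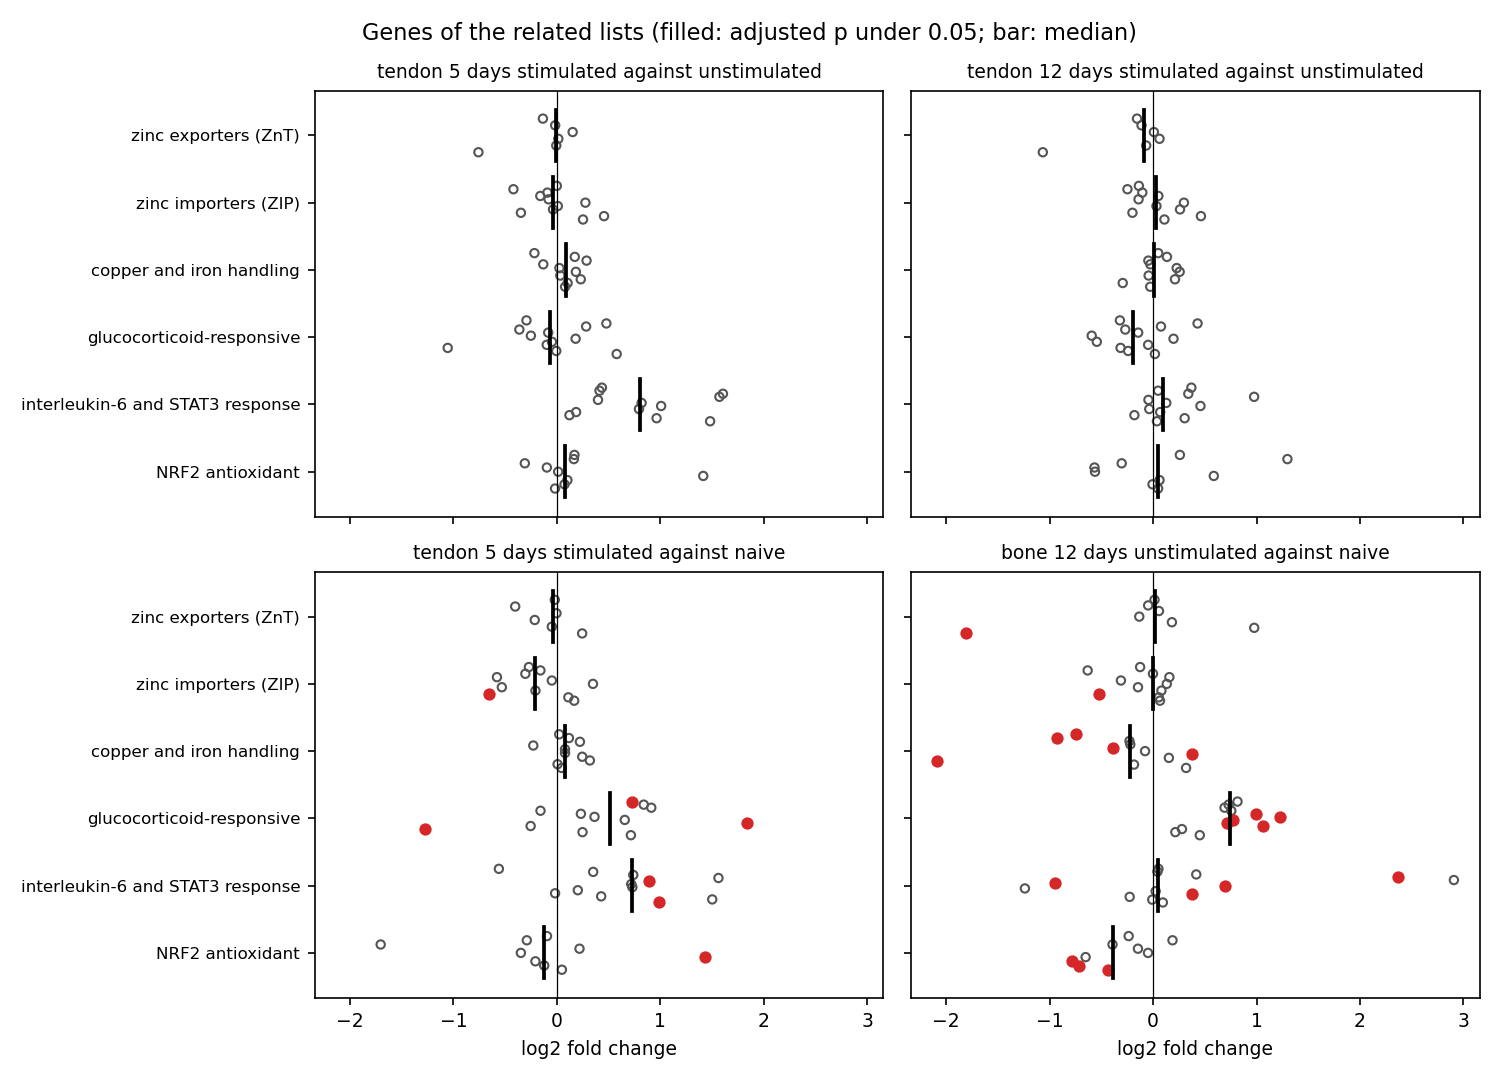
Log2 fold changes of single genes of the 6 related lists in 4 comparisons, 1 circle per gene, filled red where the edgeR adjusted p is under 0.05, with the list median as a vertical bar. On stimulation no circle is filled, and the interleukin-6 and STAT3 list lies above 0 in tendon at day 5 (median 0.81); in unstimulated bone at day 12 against naive, all 12 glucocorticoid-responsive genes lie above 0 (median 0.74).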

How the data were processed

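The authors deposited expected counts per gene for all 30 samples. Per the submitters' processing notes the tools included cutadapt 2.3, FastQC 0.11.8, STAR 2.7.8a, RSEM 1.3.3 and MultiQC 1.7, with the GRCm38 build; which annotation release was used, and whether counting used strand, is not given in the sources used here. All deposited values were whole. Gene positions came from GENCODE M21, which held 99.7% of the gene IDs.

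Genes were kept by filterByExpr (minimum count 10, total 15), scaled by TMM and tested with edgeR 4.0.16 in R 4.3.3 (robust quasi-likelihood fit), within each tissue over its 5 groups (15 tendon and 14 bone libraries), or over both tissues where tissues were compared. P-values were adjusted by Benjamini-Hochberg over all genes tested, with a threshold of 0.05. The 2 near-identical bone samples were summed. CPM are scaled to the TMM-adjusted library total, so a level says nothing of total RNA; correlations used log2 CPM with a prior count of 2. DESeq2 1.42.0 was one alternative; the others, chosen with the tests, are given in the closing section. The scripts were tested on simulated counts. All 6 members are named; of each list, up to 3 genes with the smallest p per comparison were to be named, and further list genes were chosen after their values were seen. Members and lists were chosen with earlier results of these data known.

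Replicate numbers recur across groups, but same-numbered samples were not shown to belong together, so the tests carry no block.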

Additional observations from a re-analysis of the deposited data

How the results depend on the processing

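Of the log2 fold changes of members under the alternatives, 572 kept direction and side of the threshold, 52 lost and 8 gained a call, and 32 changed sign. DESeq2 called 1 member in tendon at day 5 and 2 at day 12 on stimulation, 1 in unstimulated tendon at day 12 against naive, 1 and 2 in unstimulated and stimulated bone at day 5 against naive, 1 in stimulated bone at day 12 against naive, and 1 in the tissue difference over both days, where edgeR called 0. Of all genes DESeq2 called 129, 362, 4110, 523, 687, 1934 and 247 in these comparisons, in that order. Without the low-count filter 1 member was called in stimulated tendon at day 5 against naive and 1 over the mean of both days. Mt1 lost its call in unstimulated bone at day 12 against naive (edgeR adjusted p = 0.0619), and Mt3 between naive tissues (0.0724). Slc30a1 lost its call in stimulated tendon at day 12 against naive (0.0951). With only the compared libraries fitted, 2 were called in unstimulated and 1 in stimulated tendon at day 12 against naive, and 1 over the mean of both days in tendon. With the muscle fibre score as a covariate 1 was called in stimulated tendon at day 12 against naive, and on stimulation at day 5 the log2 fold change was 0.0872 for Mt3 in tendon and -0.0179 for Slc30a1 in bone. The cause was not tested for any of these.

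Leaving out each library in turn gave 0 to 3 members called on stimulation in tendon at day 12, 0 to 2 in stimulated tendon at day 5 and 1 to 4 at day 12 against naive, 0 to 3 over the mean of both days in tendon, 0 to 3 in unstimulated bone at day 12 against naive, 0 to 2 for the tissue difference at day 12 and over both days, and 4 to 5 between naive tissues. Log2 fold changes on stimulation that changed sign ranged, in tendon, from -0.34 to 0.26 (day 5) and -0.20 to 0.49 (day 12) for Mt3, and over both days from -0.15 to 0.25 for Mt3 and -0.043 to 0.022 for Slc30a1. In bone at day 5 they ranged from -0.13 to 1.05 for Mt2, -0.18 to 0.042 for Mtf1 and -0.043 to 0.11 for Slc30a1, and at day 12 from -0.50 to 0.086 for Mt3 and -0.24 to 0.086 for Slc39a14. Over both days in bone they ranged from -0.23 to 0.14 for Mt1, -0.48 to 0.11 for Mt2, -0.010 to 0.34 for Mt3, -0.027 to 0.084 for Mtf1 and -0.028 to 0.13 for Slc39a14.

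Same-numbered samples had correlations of -0.166 to 0.296, so the numbers were not taken to pair them. With the replicate number as a block, and the near-identical pair kept apart, 3 members were called between naive tissues, where Mt2 (1.48, edgeR adjusted p = 0.0519) and Mt3 (0.81, 0.128) were lost, and no other count of members called changed by over 1.5 times. The ranking of the most similar genes changed with rank correlation or removed group means in 23 of 24 cases. How far depth limits these values was not tested.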
